A study of Mus musculus with 8 samples.

Results

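The genes described here are 8 non-collagen markers of fibroblasts and their subtypes: Pdgfra, Pdgfrb, Thy1, Pi16, Dpt, Gas1, Cd34 and Gli1. They were selected by name from a table of 36333 genes, and all 8 were among the 13080 genes with enough signal to be tested. RNA was taken from ventral prostate lobes of FVB/N mice that were 12 months old, with 1 poly-A selected library for each of 4 hSKP2-KI and 4 WT animals. In hSKP2-KI mice the coding sequence of human SKP2, the substrate-recognition subunit of an SCF ubiquitin ligase, was placed by CRISPR/Cas9 in exon 1 of the endogenous probasin gene (Pbsn), whose androgen-driven promoter is active in luminal epithelium of the prostate and not in fibroblasts. WT mice were FVB/N animals with no knock-in. The labels do not say from which founder line the knock-in mice came.

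Fibroblasts lay down the connective tissue around the prostatic ducts, and they are recognised in the mouse by the receptor Pdgfra together with matrix genes. A reservoir-like population along vessels and organ surfaces carries Pi16, Dpt and Cd34, while cells receiving a hedgehog signal from the epithelium switch on Gli1. Several markers are shared with other cell types: Pdgfrb with pericytes, Thy1 with T cells and neurons, and Cd34 with endothelium. The samples are whole lobes, so more fibroblasts and more RNA of a gene per fibroblast cannot be told apart.

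Values are TPM (transcript abundance corrected for length, with an equal sum in every library), so levels of different genes can be compared. Read counts are not part of the table, so depth is unknown. Genotypes were compared on the log2(TPM + 1) scale with limma, and p-values were adjusted over all tested genes with a threshold of 0.05. Since the added 1 shrinks the log2 fold change of a gene with low TPM, ratios of mean TPM are given too. TPM has a fixed total, and the log2 fold change of the median gene was 0.23, whereas after median-ratio scaling, which divides each library by its typical ratio to the others, it was -0.01. Results on both scales are therefore given.

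Of the 8 markers, 7 were higher in hSKP2-KI prostates at an adjusted p under 0.05 and 1, Pdgfrb, did not pass. None was lower. For comparison, 32.7% of all tested genes were called higher and 1.23% lower on the same scale. After median-ratio scaling 5 markers (Thy1, Pi16, Dpt, Cd34 and Gas1) remained higher, where 6.91% of all genes were higher and 4.25% lower. The median log2 fold change of the 8 markers was 1.08 with TPM as deposited and 0.82 after median-ratio scaling. Every hSKP2-KI sample lay above every WT sample for 5 markers on either scale, compared with 34.0% of tested genes with TPM as deposited and 10.3% after median-ratio scaling. These 5 markers had log2 fold changes of 1.03 or more with TPM as deposited, and Pdgfra, Pdgfrb and Gli1 of 0.61 or less.

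**Figure D1:**
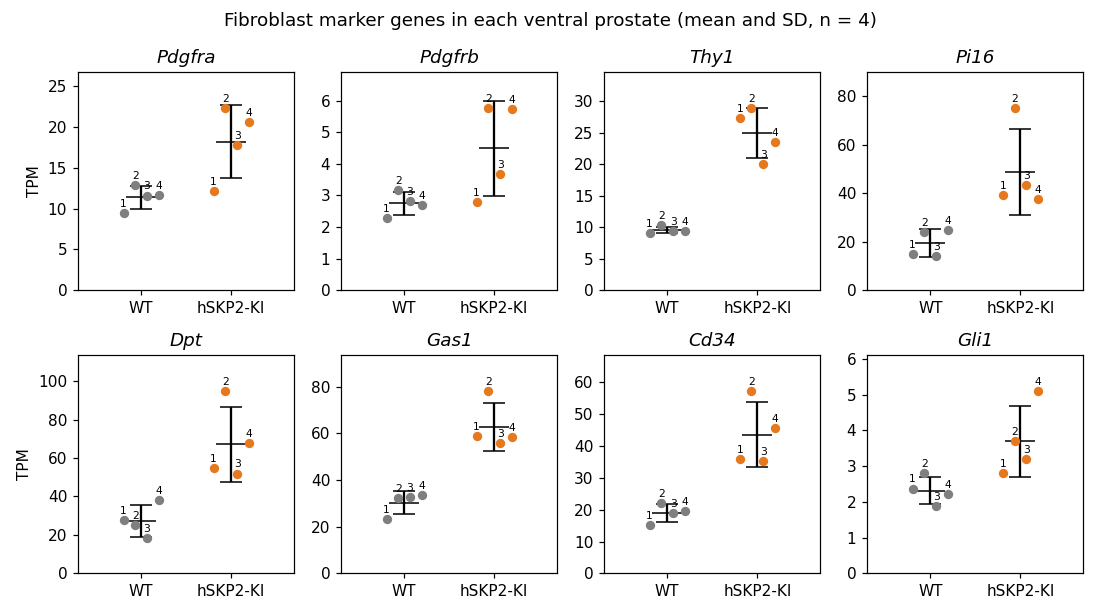
TPM of the 8 marker genes in each ventral prostate, with WT in grey and hSKP2-KI in orange, points numbered by replicate and bars giving the mean and SD (n = 4). For Thy1, Pi16, Dpt, Gas1 and Cd34 all orange points lie above all grey ones, whereas hSKP2-KI replicate 1 falls into the WT range for Pdgfra, Pdgfrb and Gli1.

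**Figure D2:**
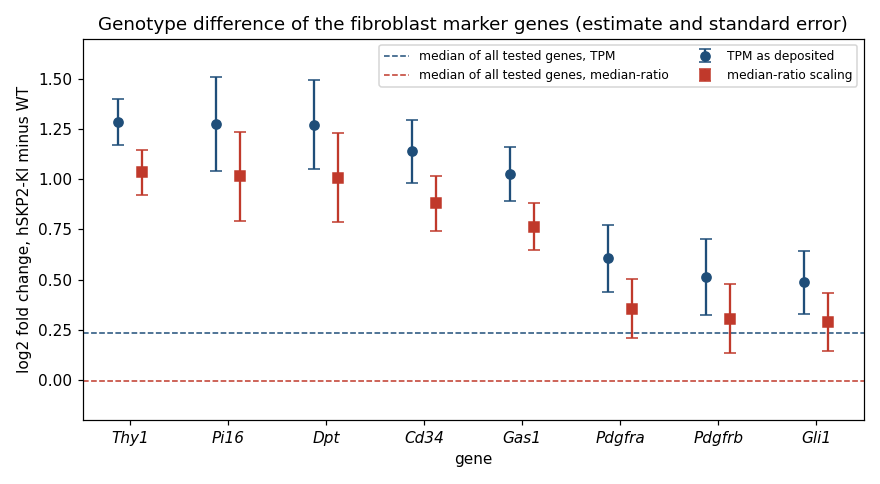
Log2 fold change of each marker (hSKP2-KI minus WT, on log2(TPM + 1)) with its standard error, for TPM as deposited and after median-ratio scaling. Dashed lines are the medians of all tested genes, 0.23 and -0.01, and the markers range from 0.49 to 1.29 with TPM as deposited.

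The knock-in labels were checked first. Skp2 lay between 37.3 and 60.6 TPM in hSKP2-KI prostates and between 1.05 and 2.27 TPM in WT prostates. Reads were mapped to the mouse genome, and human and mouse SKP2 transcripts cannot be told apart in this value. Pbsn, the gene that received the insertion, lay between 93.0 and 174 TPM in hSKP2-KI and between 3980 and 9232 TPM in WT. The general fibroblast list of 16 genes, which includes the matrix proteoglycan Dcn at 346 ± 47.1 TPM in WT (SD, n = 4), was expressed in every library, and the epithelial list summed to between 1721 and 2275 TPM in all 8. Genes of the seminal vesicle, a gland next to the prostate, summed to at most 0.656 TPM.

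The start regions of 4 of these 5 markers are shown, those that had a promoter entry, because all 4 genes were higher in hSKP2-KI on both scales. Each runs from 250 bases before to 50 bases after a RefSeq transcript start of the gene in GRCm38.p6, 5′ to 3′ on the strand of the gene, and capitals mark the motifs that were found. The motifs searched on both strands were the TATA box (TATAAA), the CCAAT box (CCAAT), the GC box (GGGCGG) and the GLI site (GACCACCCA) through which Gli1 and its relatives bind DNA. None of these motifs overlaps another one in the regions shown. The regions are chr17:29318632-29318931 (plus strand) for Pi16, chr1:164796413-164796712 (plus) for Dpt, chr13:60177486-60177785 (minus) for Gas1 and chr1:194938571-194938870 (plus) for Cd34.
Pi16: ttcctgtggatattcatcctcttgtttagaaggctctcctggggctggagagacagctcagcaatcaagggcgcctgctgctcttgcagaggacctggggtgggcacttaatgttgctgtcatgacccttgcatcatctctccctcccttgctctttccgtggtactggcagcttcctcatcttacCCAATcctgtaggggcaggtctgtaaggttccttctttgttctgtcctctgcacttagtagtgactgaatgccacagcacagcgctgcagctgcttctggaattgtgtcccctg
Dpt: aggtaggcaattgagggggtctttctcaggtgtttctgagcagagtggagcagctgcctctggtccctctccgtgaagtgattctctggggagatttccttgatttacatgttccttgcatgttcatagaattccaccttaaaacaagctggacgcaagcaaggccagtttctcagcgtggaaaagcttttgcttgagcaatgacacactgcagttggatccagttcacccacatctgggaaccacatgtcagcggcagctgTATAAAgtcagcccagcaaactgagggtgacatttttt
Gas1: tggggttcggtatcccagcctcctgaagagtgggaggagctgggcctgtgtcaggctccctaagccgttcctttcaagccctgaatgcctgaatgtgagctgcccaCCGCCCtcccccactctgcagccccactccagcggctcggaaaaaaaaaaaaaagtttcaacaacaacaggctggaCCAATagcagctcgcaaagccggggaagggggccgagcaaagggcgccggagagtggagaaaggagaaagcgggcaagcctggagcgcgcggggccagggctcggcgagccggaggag
Cd34: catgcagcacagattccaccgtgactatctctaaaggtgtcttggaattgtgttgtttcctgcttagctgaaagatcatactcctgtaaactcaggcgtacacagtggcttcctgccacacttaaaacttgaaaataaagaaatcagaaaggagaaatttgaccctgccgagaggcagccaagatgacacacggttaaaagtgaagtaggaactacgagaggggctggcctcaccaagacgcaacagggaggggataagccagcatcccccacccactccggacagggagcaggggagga
The Pi16 region holds a CCAAT box at position -64 from the start, and the Gas1 region one at position -68 with a GC box on the opposite strand at -144. For Pi16 this start lies inside the span of the RefSeq gene, which begins further upstream. Among 32851 mouse promoters of the same length, 37.4% hold a CCAAT box and 35.7% a GC box. The Dpt region has a TATAAA at position 13 after the start, a motif in 13.6% of promoters. Gas1 is the one rich in CG pairs, with 17 of them and 62.3% G and C, where the median promoter has 7 and 52.7%. Pi16 had 3 CG pairs, Dpt 4, Pdgfra 5 and Cd34 7. The GLI site occurs in 0.253% of promoters and in none of the 5 markers with an entry, which are these 4 and Pdgfra. A motif match describes the letters only.

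Pdgfra and Pdgfrb encode the receptor tyrosine kinases for platelet-derived growth factors. Pdgfra, the usual identity marker of fibroblasts (Entrez 18595, chromosome 5, 75151322 to 75198206 in GRCm38), had 12.1, 22.3, 17.8 and 20.6 TPM in hSKP2-KI replicates 1 to 4. In WT replicates 1 to 4 it had 9.49, 12.8, 11.6 and 11.6 TPM. The other hSKP2-KI samples were above all WT samples, while hSKP2-KI replicate 1 lay inside the WT range. The means were 18.2 ± 4.44 and 11.4 ± 1.39 TPM (SD, n = 4), a ratio of 1.60. The log2 fold change was 0.61 (standard error, SE, 0.17, adjusted p = 0.0202) with TPM as deposited, and 0.36 after median-ratio scaling (SE 0.15, adjusted p = 0.147). The call for Pdgfra therefore depends on the scaling. It was also lost when hSKP2-KI replicate 2 (adjusted p = 0.0519), hSKP2-KI replicate 4 (0.0534) or WT replicate 1 (0.0571) was left out. Without hSKP2-KI replicate 1, the fold change after median-ratio scaling was 0.51 and passed (adjusted p = 0.0163).

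Pdgfrb (Entrez 18596), which pericytes and other mural cells also carry, had 2.78, 5.76, 3.68 and 5.75 TPM in hSKP2-KI replicates 1 to 4. The WT replicates had 2.29, 3.19, 2.83 and 2.71 TPM. As for Pdgfra, hSKP2-KI replicate 1 was within the WT range and the other hSKP2-KI samples above it. The means of 4.50 ± 1.50 and 2.75 ± 0.369 TPM (SD, n = 4) stood in a ratio of 1.63. The log2 fold change of 0.51 (SE 0.19) narrowly missed the threshold (adjusted p = 0.0552), and it was 0.30 after median-ratio scaling (adjusted p = 0.282). Without hSKP2-KI replicate 1 it was 0.68 and passed with TPM as deposited (adjusted p = 0.0154). The receptors stood in a similar proportion in both genotypes: mean Pdgfra was 4.14 times mean Pdgfrb in WT and 4.05 times in hSKP2-KI. Within samples the log2 ratio of Pdgfrb to Pdgfra differed by -0.09 between genotypes (two-sided exact permutation p = 0.229, adjusted p = 0.254).

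The mural cell list, without Pdgfrb, summed to between 48.2 and 67.8 TPM in hSKP2-KI and between 39.0 and 45.9 TPM in WT. Of its 6 tested genes out of 8, 2 were higher with TPM as deposited, Mcam (log2 fold change 0.54, adjusted p = 0.0043) and Abcc9 (0.50, adjusted p = 0.0442), and 0 after median-ratio scaling. Over all tested genes 32.7% were higher with TPM as deposited, so 2 of 6 is near the general share. Rgs5, a pericyte gene, and Notch3, which mural cells need for their maturation, did not pass. Higd1b and Cox4i2 were below 1 TPM in all 8 samples. The log2 ratio of Pdgfrb to the mean of these genes differed by 0.23 (two-sided exact permutation p = 0.114, adjusted p = 0.143). The part of mural cells in the Pdgfrb values was not tested.

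Among the 4 ligands of these receptors, 3 were higher with TPM as deposited and 1 after median-ratio scaling. Pdgfc, a ligand of Pdgfra, had 10.9 ± 0.627 TPM in hSKP2-KI and 6.07 ± 0.993 TPM in WT (SD, n = 4), a log2 change of 0.77 (adjusted p = 0.00203) or 0.53 after median-ratio scaling (adjusted p = 0.00972). Pdgfb, which recruits pericytes, had a log2 change of 0.55 (adjusted p = 0.0244), and Pdgfd one of 0.39 (adjusted p = 0.014). Pdgfa was the most abundant ligand in both genotypes by mean, and its difference of 0.08 did not pass (adjusted p = 0.51).

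Thy1 (CD90), a glycolipid-anchored surface protein (Entrez 21838, chromosome 9, 44043384 to 44048579), had 27.4, 28.9, 20.01 and 23.5 TPM in hSKP2-KI replicates 1 to 4. The WT replicates had 9.05, 10.3, 9.41 and 9.45 TPM. The genotypes were far apart, and the WT samples lay close together. The means were 24.96 ± 4.00 and 9.56 ± 0.543 TPM (SD, n = 4), a ratio of 2.61, which is the largest among the 8 markers. The log2 fold change was 1.29 (SE 0.12, adjusted p = 0.000135), and 1.03 after median-ratio scaling (SE 0.11, adjusted p = 0.000971). It lay between 1.21 and 1.38 with any 1 sample left out. Thy1 is also among the mesenchymal genes that the study selected on these samples, which is not independent evidence of its direction.

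T cells and neurons carry Thy1 as well. The T cell list summed to between 8.00 and 10.3 TPM in hSKP2-KI and between 3.75 and 8.14 TPM in WT, which overlapped. Of its 4 tested genes out of 6, 2 (Cd3g and Cd2) were higher with TPM as deposited and 0 after median-ratio scaling, and Cd3e stayed between 0.568 and 2.17 TPM in all samples. Over all tested genes 32.7% and 6.91% were higher on these scales. The log2 ratio of Thy1 to the mean T cell gene was 3.43 ± 0.12 in hSKP2-KI and 2.52 ± 0.26 in WT (SD, n = 4), a difference of 0.91 without overlap (two-sided exact permutation p = 0.0286, adjusted p = 0.0571). The added 1 shrinks the changes of genes as low as those of the T cell list. With 0.1 added in its place, the difference was 0.65. The neuron list summed to between 25.9 and 61.8 TPM in hSKP2-KI and between 16.2 and 18.9 TPM in WT. Most of this sum was Uchl1, with 21.7 to 32.5 TPM in hSKP2-KI and 14.2 to 16.9 TPM in WT. All 3 tested genes out of 5 were higher with TPM as deposited and 1 after median-ratio scaling (Uchl1, log2 fold change 0.49, adjusted p = 0.0438). The highest sum belonged to hSKP2-KI replicate 1, in which the neuronal tubulin Tubb3 had 8.95 TPM and Snap25, a synaptic protein, 3.97 TPM, while both were at or below 0.735 TPM in the other 7 samples and listed at 0 in WT replicate 1. Without hSKP2-KI replicate 1 the log2 fold change of Thy1 was 1.24 with TPM as deposited and 0.97 after median-ratio scaling. The part of either cell type in the Thy1 difference was not tested.

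Pi16, a secreted peptidase inhibitor-like protein that marks the adventitial population, and Dpt, the matrix protein dermatopontin of universal fibroblasts, were among the more abundant markers. Pi16 (Entrez 74116, chromosome 17, 29318796 to 29328903) had 39.2, 75.0, 43.3 and 37.7 TPM in hSKP2-KI replicates 1 to 4, against 14.8, 23.8, 14.1 and 24.7 TPM in the WT replicates. The genotypes did not overlap, and hSKP2-KI replicate 2 stood well above the others. The means were 48.8 ± 17.6 and 19.4 ± 5.66 TPM (SD, n = 4), a ratio of 2.52. The log2 fold change was 1.27 (SE 0.24, adjusted p = 0.00417), and 1.02 after median-ratio scaling (adjusted p = 0.0204). The latter call was lost without WT replicate 1 (adjusted p = 0.056).

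Dpt (Entrez 56429, chromosome 1, 164796663 to 164824274) had 54.7, 94.6, 51.9 and 67.7 TPM in hSKP2-KI replicates 1 to 4. The WT replicates had 27.7, 25.3, 18.2 and 38.3 TPM. The highest WT sample, replicate 4, was below the lowest hSKP2-KI sample, replicate 3. The means of 67.2 ± 19.5 and 27.4 ± 8.33 TPM (SD, n = 4) gave a ratio of 2.46 and a log2 change of 1.27 (SE 0.22, adjusted p = 0.00355). After median-ratio scaling it was 1.01 (adjusted p = 0.0213), and it did not pass without hSKP2-KI replicate 4 (adjusted p = 0.0533) or WT replicate 2 (0.0521).

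Other genes listed for the adventitial population followed in the same direction. Of 10 listed genes 9 were tested, of which 8 were higher with TPM as deposited and 6 after median-ratio scaling, with median log2 fold changes of 0.98 and 0.71. The annexin Anxa3 had 126 ± 15.7 TPM in hSKP2-KI and 52.9 ± 10.6 TPM in WT (SD, n = 4), a log2 change of 1.25 (adjusted p = 0.000502). The microfibril protein Mfap5 (log2 fold change 1.15, adjusted p = 0.00319), Ly6c1 (1.13, adjusted p = 0.000608) and the secreted semaphorin Sema3c (0.90, adjusted p = 0.00117) were higher on both scales. Pcolce2, an enhancer of procollagen processing, was higher too (0.98, adjusted p = 0.00368). Like Thy1, Pcolce2 is in a list that the study chose on these samples. Dpp4, the surface peptidase often used to sort these cells, did not pass (log2 fold change 0.42, adjusted p = 0.075), and Has1, a hyaluronan synthase, was too low to be tested. Mesothelium covers the organ surfaces near such fibroblasts. Its list summed to between 3.40 and 12.6 TPM in hSKP2-KI and between 0.642 and 1.95 TPM in WT, with 2 of 2 tested genes out of 5 higher as deposited and 1 after median-ratio scaling. Msln, the mesothelial surface protein mesothelin, had 4.52, 7.77, 2.08 and 3.53 TPM in hSKP2-KI replicates 1 to 4 and at most 0.652 TPM in WT, while Bnc1 was at 0 or near it in all samples. The part of mesothelial cells in the Pi16 and Dpt values was not tested, nor was that of other cell types in the values of the listed genes.

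Gas1, a surface protein of quiescent cells that also assists hedgehog ligands at their receptor (Entrez 14451, chromosome 13, 60174405 to 60177535), had 58.9, 77.9, 55.9 and 58.4 TPM in hSKP2-KI replicates 1 to 4. The WT replicates had 23.1, 32.2, 32.6 and 33.4 TPM. The genotypes were widely separated, with 1 sample apart from the rest in each: replicate 2 high among hSKP2-KI and replicate 1 low among WT. The means were 62.8 ± 10.2 and 30.3 ± 4.82 TPM (SD, n = 4), a ratio of 2.07. Gas1 had a log2 change of 1.03 (SE 0.14, adjusted p = 0.0011), and 0.76 after median-ratio scaling (adjusted p = 0.00573). It lay between 0.91 and 1.08 with any 1 sample left out. Gas1 is also in a list that the study chose on these samples, which is not independent evidence of its direction.

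Cd34, a sialomucin of stromal progenitors and endothelium (Entrez 12490, chromosome 1, 194938821 to 194961292), had 35.9, 57.1, 35.4 and 45.6 TPM in hSKP2-KI replicates 1 to 4. The WT replicates had 15.2, 22.1, 18.9 and 19.7 TPM. No WT sample came near the lowest hSKP2-KI sample. The means of 43.5 ± 10.2 and 19.0 ± 2.86 TPM (SD, n = 4) gave a ratio of 2.29. For Cd34 the log2 fold change was 1.14 (SE 0.16, adjusted p = 0.00139), and 0.88 after median-ratio scaling (adjusted p = 0.006). Endothelial genes moved with it: the list without Cd34 summed to between 58.4 and 96.4 TPM in hSKP2-KI and between 36.5 and 52.4 TPM in WT. Of its 9 tested genes out of 10, 6 were higher with TPM as deposited and 3 after median-ratio scaling, among them the adhesion molecule Pecam1 (log2 fold change 0.93, adjusted p = 0.00393). None of the listed genes was at 0. The log2 ratio of Cd34 to the mean endothelial gene was 2.58 ± 0.25 in hSKP2-KI and 2.01 ± 0.08 in WT (SD, n = 4), a difference of 0.57 without overlap (two-sided exact permutation p = 0.0286, adjusted p = 0.0571). The part of endothelium in the Cd34 values was not tested.

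Gli1, the transcription factor at the end of the hedgehog pathway (Entrez 14632, chromosome 10, 127329882 to 127341579), was the least abundant marker in both genotypes by mean. It had 2.80, 3.70, 3.20 and 5.09 TPM in hSKP2-KI replicates 1 to 4 and 2.37, 2.81, 1.88 and 2.21 TPM in the WT replicates. The groups just overlapped, since WT replicate 2 was marginally above hSKP2-KI replicate 1, and hSKP2-KI replicate 4 was the highest. The means were 3.70 ± 0.998 and 2.32 ± 0.386 TPM (SD, n = 4), a ratio of 1.59. For Gli1 the log2 fold change was 0.49 (SE 0.16, adjusted p = 0.0376), and 0.29 after median-ratio scaling (adjusted p = 0.234). The call with TPM as deposited was lost when hSKP2-KI replicate 2 (adjusted p = 0.0741), hSKP2-KI replicate 4 (0.0927), WT replicate 1 (0.0683), WT replicate 3 (0.0989) or WT replicate 4 (0.0754) was left out.

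Of 15 other hedgehog genes 11 were tested, of which 5 were higher with TPM as deposited and 3 after median-ratio scaling, with median log2 fold changes of 0.34 and 0.13. Over all tested genes 32.7% and 6.91% were higher on these scales, with medians of 0.23 and -0.01. The ligand Ihh had 4.41 ± 1.26 TPM in hSKP2-KI and 1.12 ± 0.457 TPM in WT (SD, n = 4), a log2 change of 1.34 (adjusted p = 0.002) or 1.17 after median-ratio scaling (adjusted p = 0.00845). Shh, the ligand best known from the prostate epithelium, did not pass (log2 fold change 0.48, adjusted p = 0.0979). Smo, the signal transducer, had 27.0 ± 3.24 and 13.2 ± 2.19 TPM (SD, n = 4), a log2 change of 0.98 (adjusted p = 0.00101). The target genes that restrain the pathway differed in their calls. Hhip, which binds ligand, was higher on either scale, by 0.84 as deposited (adjusted p = 0.0048) and by 0.59 with median-ratio scaling (adjusted p = 0.0314), whereas Ptch1, the ligand receptor, passed with TPM as deposited (0.37, adjusted p = 0.0299) but not after median-ratio scaling (0.12, adjusted p = 0.416). Boc, a co-receptor like Gas1, had 0.31 (adjusted p = 0.0429) as deposited and 0.05 (adjusted p = 0.729) after scaling. Gli2 was below 1 TPM in all samples and was not tested, and Gli3 did not pass.

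By mean TPM the markers fell into 3 tiers in both genotypes. In WT the order was Gas1 (30.3 TPM), Dpt (27.4), Pi16 (19.4) and Cd34 (19.0), then Pdgfra (11.4) and Thy1 (9.56), then Pdgfrb (2.75) and Gli1 (2.32). In hSKP2-KI it was Dpt (67.2 TPM), Gas1 (62.8), Pi16 (48.8) and Cd34 (43.5), then Thy1 (24.96) and Pdgfra (18.2), then Pdgfrb (4.50) and Gli1 (3.70). Neighbours within a tier had overlapping ranges, and the neighbours at each step between tiers did not. Thy1 and Pdgfra changed places between the genotypes, within overlapping ranges in each. Placed among all tested genes in WT, Gas1 lay above 76.4% of them, Pdgfra above 50.3% and Gli1 above 15.9%.

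Each marker was also set against Pdgfra inside each sample on the log2(TPM + 1) scale, on which scaling of the samples enters only through the added 1 and matters most for low genes such as Pdgfrb and Gli1. In all, 10 ratios were tested, with p-values adjusted over them, and with 4 mice against 4 the smallest possible exact p is 0.0286, which 5 ratios reached. None had an adjusted p under 0.05 with the exact permutation test, and these 5 ratios stood at an adjusted p of 0.0571. The ratio of Thy1 to Pdgfra was 1.11, 0.36, 0.16 and 0.19 in hSKP2-KI replicates 1 to 4 and -0.06, -0.29, -0.27 and -0.27 in the WT replicates. Its difference of 0.68 had no overlap (two-sided exact permutation p = 0.0286), and it was 0.46 without hSKP2-KI replicate 1, the sample that stood highest. The ratios of Cd34 (difference 0.53) and Gas1 (0.42) to Pdgfra also had no overlap and the same exact p. Without hSKP2-KI replicate 1 the Gas1 difference was 0.27, and with 0.1 in place of 1 added to TPM the genotypes overlapped for Gas1. The ratios of Pi16 (0.67, exact permutation p = 0.0857, adjusted p = 0.122) and Dpt (0.66, exact permutation p = 0.0571, adjusted p = 0.0952) differed by as much but overlapped between genotypes. For Gli1 to Pdgfra the difference was -0.12 (exact permutation p = 0.514), smaller than the spread between samples. With 0.1 added it was -0.014, and that of Pdgfrb to Pdgfra was -0.0097.

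**Figure D3:**
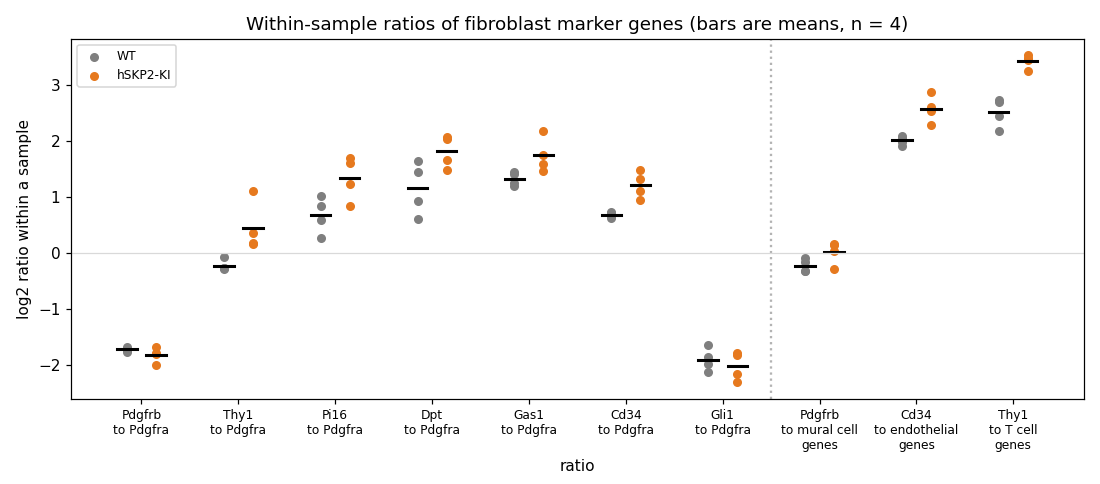
Log2 ratios within each sample, with WT in grey, hSKP2-KI in orange and bars for the means (n = 4), first of 7 markers to Pdgfra and then of Pdgfrb, Cd34 and Thy1 to the mean of another cell type's genes. For 5 ratios, those of Thy1, Gas1 and Cd34 to Pdgfra, Cd34 to endothelial genes and Thy1 to T cell genes, the genotypes do not overlap.

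The same few samples were often at the extremes. hSKP2-KI replicate 2 was the highest of all for 7 markers and hSKP2-KI replicate 4 for Gli1, while WT replicate 1 was the lowest WT sample for 5 markers and WT replicate 2 the highest for 5. Likeness of pattern was measured as the root mean square distance between genes' centred log2(TPM + 1) values over the 8 samples. Both genotypes were centred together, so a small value can reflect a similar genotype difference as much as a similar spread between mice. The added 1 shrinks the changes of low genes, so a small distance need not mean a similar ratio of TPM. Pdgfra and Pdgfrb were each other's nearest marker (distance 0.0997), as were Gas1 and Cd34 (0.136) and Pi16 and Dpt (0.257). Among the other 13072 tested genes, the nearest to Pdgfra were Aox1, Stard8 and Zeb2 (0.0544 to 0.0824), and to Pdgfrb Adgrl4, Aox1 and Cmklr1 (0.0795 to 0.104). Clec3b, a secreted lectin in the general fibroblast list, was nearest to both Pi16 (0.145) and Dpt (0.182). Htra3 and Emp3 came next for Pi16, and Lgals1 and Rarres2 for Dpt. Nearest to Gas1 were Casp12, Stc1 and the mesenchymal transcription factor Prrx1 (0.0645 to 0.099), and to Cd34 Ly6c1, Rnase4 and Tmem140 (0.0925 to 0.111). Thy1 ran closest to 2310007B03Rik, Gde1 and Foxq1 (0.114 to 0.13), and Gli1 to Osbpl11, Nrarp and Zfp219 (0.0884 to 0.0921). Mean 2310007B03Rik was 0.193 TPM in WT and 1.58 TPM in hSKP2-KI, so its likeness to Thy1 rests on the added 1. For Gli1, 519 of the other genes lay nearer than its nearest marker, and for the remaining markers 2 to 34 did. How far the low level of Gli1 and the added 1 affect this number was not tested.

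Other fibroblast genes gave the setting of these markers. In the general fibroblast list 15 of 16 genes were tested, of which 14 were higher with TPM as deposited and 8 after median-ratio scaling, with median log2 fold changes of 0.91 and 0.67. Its sum ranged from 806 to 1289 TPM in hSKP2-KI and from 424 to 598 TPM in WT. Dcn made up most of it, with 519 to 768 TPM in hSKP2-KI and 285 to 398 TPM in WT. Lum, a small proteoglycan that organises collagen fibrils, had 23.2 ± 7.04 TPM in hSKP2-KI and 5.91 ± 2.01 TPM in WT (SD, n = 4), a log2 change of 1.81 (adjusted p = 0.000844) or 1.56 after median-ratio scaling (adjusted p = 0.00331). Dcn had a log2 change of 0.87 (adjusted p = 0.00186) and Prrx1 one of 0.93 (adjusted p = 0.0021). Lum and Prrx1 are also in a list that the study chose on these samples, which is not independent evidence of their direction. Fap, a peptidase of reactive fibroblasts, was too low to be tested.

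Genes known from subsets of prostate mesenchyme had smaller medians: 9 of 12 were tested, 7 of them higher with TPM as deposited and 2 after median-ratio scaling, with median log2 fold changes of 0.54 and 0.37. The Wnt enhancer Rspo3 (log2 fold change 0.74, adjusted p = 0.00169) and the oestrogen sulfotransferase Sult1e1 (0.95, adjusted p = 0.00814) passed on both scales. Rorb had 2.45 ± 0.246 TPM in hSKP2-KI and 2.46 ± 0.2 TPM in WT (SD, n = 4). In the list of activated fibroblast genes 6 of 9 were tested, and they split. Postn, a matricellular protein (log2 fold change 1.45, adjusted p = 0.00379), and fibronectin, Fn1 (1.34, adjusted p = 0.00962), were higher on both scales and Col8a1 with TPM as deposited only. Cthrc1, a secreted protein of collagen-making fibroblasts, was lower, with 6.55 ± 0.804 TPM in hSKP2-KI and 8.42 ± 0.855 TPM in WT (SD, n = 4), a log2 change of -0.32 (adjusted p = 0.0493) or -0.56 after median-ratio scaling (adjusted p = 0.0212). The median log2 fold change of this list was 1.06 and 0.85 on these scales.

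**Figure D4:**
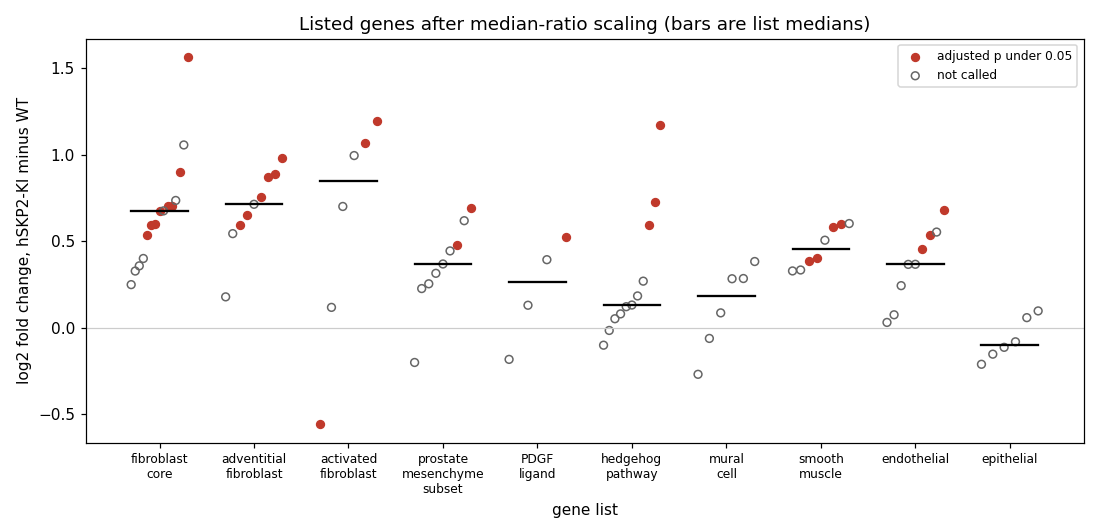
Log2 fold change (hSKP2-KI minus WT) of the tested genes of 10 lists after median-ratio scaling, with filled points for an adjusted p under 0.05 and bars for list medians. The medians of the fibroblast core and adventitial lists are 0.67 and 0.71, that of the mural cell list is 0.19 and that of the epithelial list is -0.10.

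Among the lists not yet described, smooth muscle was the one with calls after median-ratio scaling. All 8 smooth muscle genes were higher with TPM as deposited and 4 after median-ratio scaling (median log2 fold changes 0.72 and 0.45), and the list summed to between 3089 and 4722 TPM in hSKP2-KI and between 2083 and 2626 TPM in WT. Of 5 mast cell genes, 4 were higher as deposited and 0 after scaling, with sums of 15.1 to 31.4 TPM and 8.46 to 18.2 TPM. Of 4 tested Schwann cell genes out of 5, S100b alone was higher as deposited and 0 were after scaling (7.19 to 14.3 TPM and 5.16 to 9.07 TPM). The leukocyte marker Ptprc did not pass (log2 fold change 0.68, adjusted p = 0.0744). Neither did any of 6 adipocyte genes, whose sum varied from 89.3 to 693 TPM in hSKP2-KI and from 89.2 to 462 TPM in WT. Of 4 tested skeletal muscle genes out of 6, Acta1 was higher as deposited and 0 were after scaling (256 to 437 TPM and 161 to 311 TPM). Acta1 made up most of these sums, with 244 to 370 TPM in hSKP2-KI and 151 to 229 TPM in WT. Among hSKP2-KI samples it did not follow Tnnt3, another gene of this list. Acta1 was highest in replicate 1, where Tnnt3 had 0.89 TPM, and Tnnt3 was highest in replicate 4 (26.5 TPM). Among WT samples both were highest in replicate 2. Of 6 epithelial genes, Epcam and Cdh1 were higher as deposited and 0 after scaling, with a median log2 fold change of 0.17 and -0.10 respectively. Over all tested genes 32.7% were higher as deposited and 6.91% after scaling. Beside these shares the epithelial, Schwann cell and skeletal muscle counts do not stand out. None of the 5 seminal vesicle genes was tested. The part of these cell types in the values of the 8 markers was not tested.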

How the data were processed

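Poly-A selected libraries of 8 ventral prostates were sequenced as paired ends, trimmed and mapped in CLC software by the authors. The submitters' processing notes name mm10 and GRCm38. Counting options, the annotation and the treatment of strand are not given in the sources used here. The authors deposited 1 table of TPM values, which divide the reads of a gene by its length and scale each library to 1000000. TPM holds no counts, so depth is unknown and count models, intervals and floors were not used. The table holds 0 columns of other samples.

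Samples were grouped by genotype from the labels. Genes that reached a TPM of 1 in 4 or more of the 8 samples were tested on log2(TPM + 1) with limma 3.58.1 (R 4.3.3, mean-variance trend, two-sided) and the Benjamini-Hochberg adjustment, and the procedure was tested on simulated data. Median-ratio scaling used the median, over tested genes above 0 in every sample, of each library's ratio to the geometric mean. Within-sample ratios were compared by two-sided exact permutation over 70 assignments. As alternatives, each sample was left out, values were rescaled by median ratio, by quantiles or without the 20 most abundant genes, the pseudocount was 0.1, the filter was dropped or set to a mean TPM of 5, and the fit had a replicate block, sample weights or robust variance moderation.

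The 8 markers and the 19 gene lists were chosen with earlier results of these data known. The genes named are these, Skp2 and Pbsn, and for each marker the 3 tested genes nearest in profile. Promoters were RefSeq regions in GRCm38.p6, the build of the notes, and 5 of the 8 markers had one. Ccn2 was matched by identifier to its older symbol Ctgf. Deviations of same-numbered samples of the genotypes correlated weakly and in both directions (correlations across genes of 0.221, -0.109, 0.167 and -0.0142). The labels give no pairing. Differently numbered samples were not compared, so these values cannot show whether the numbers pair the mice. No batch is given in the labels. Each library comes from a separate mouse. Plots used matplotlib 3.10.9 (Python 3.11.15).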

Additional observations from a re-analysis of the deposited data

Results flagged for a closer look

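Among the 16 groups of 4 samples (8 markers in 2 genotypes), 3 held a sample far from the others by Dixon's test. Chance alone marks about 1 in 20 independent groups. These groups share the same 8 libraries and are not independent, so their number cannot be set against that rate. Pi16 had 75.0 TPM in hSKP2-KI replicate 2, against 37.7 to 43.3 TPM in the other hSKP2-KI samples. Gas1 had 77.9 TPM in the same sample, against 55.9 to 58.9 TPM in the others of its genotype. Gas1 also had 23.1 TPM in WT replicate 1, against 32.2 to 33.4 TPM in the other WT samples. Without these samples both genes stayed higher in hSKP2-KI with TPM as deposited, and after median-ratio scaling Pi16 did not pass without WT replicate 1 (adjusted p = 0.056).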

How the results depend on the processing

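No marker changed direction under any of 134 alternatives to its log2 fold change. Some of these could not change it: the filter settings, the replicate block and robust variance moderation leave the estimate as it was. Without the filter on low values, 3 markers were called higher in place of 7, and 1653 genes of the table in place of 4433; Pdgfra, Gli1, Pi16 (adjusted p = 0.0612) and Dpt (0.054) were not called, and the cause was not tested. Of all tested genes, 1460 were called after median-ratio scaling, 1317 after quantile normalization and 1321 without the 20 most abundant genes. Leaving out 1 sample gave 5 to 8 markers called higher with TPM as deposited, and 4 to 6 after median-ratio scaling, an alternative chosen after seeing the data. With TPM as deposited the number was 5 without hSKP2-KI replicate 2, hSKP2-KI replicate 4 or WT replicate 1. On that scale 2993 to 4677 genes of the table were called in either direction with 1 sample left out. Counts over all genes are not given for the median-ratio fits with 1 sample left out or with the replicate block. The marker counts of those fits therefore have no background beside them. The number of ratios to Pdgfra without overlap was 3 and ranged from 3 to 5 with 1 sample left out (5 without hSKP2-KI replicate 4). Leaving out a sample cannot make separated groups overlap, so this number could not fall there. With a pseudocount of 0.1 it was 2. The ratio of Thy1 to T cell genes differed by 0.65 in place of 0.91 with a pseudocount of 0.1.

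With the replicate block 8 markers were called higher with TPM as deposited, Pdgfrb included (adjusted p = 0.0276). In that fit 5128 genes of the table were called in either direction. After median-ratio scaling with the block 5 markers were called higher. Whether the numbers pair the mice is not known. Sample quality weights also brought Pdgfrb past the threshold (adjusted p = 0.0428). A mean TPM of at least 5 left Pdgfrb and Gli1 out of the test.

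Genes called higher after median-ratio scaling, against the count with TPM as deposited, were 8 in place of 14 for the fibroblast core list, 2 in place of 7 for prostate mesenchyme subsets, 1 in place of 3 for PDGF ligands and for neurons, 3 in place of 5 for hedgehog, 4 in place of 8 for smooth muscle, 3 in place of 6 for endothelium and 1 in place of 2 for mesothelium. They were 0 in place of 2 for mural cells, T cells and epithelium, 0 in place of 4 for mast cells, and 0 in place of 1 for Schwann cells and skeletal muscle. Over all tested genes 6.91% were higher after median-ratio scaling, in place of 32.7%.

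Limits: depth behind the TPM values is unknown, so the precision of low genes such as Gli1 and Pdgfrb cannot be separated from variation between mice. How the general shift of TPM arises was not tested. All samples are whole lobes of 1 age from 4 mice a genotype, and the founder line is not given in the labels.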
